A study of Mus musculus with 6 samples.

Results

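Histone genes, linker and core, were examined in whole retinas of wild-type (WT) and rd10 mice. The 84 genes are the rows of the count table, of 24062, whose symbols start with Hist1h, Hist2h, Hist3h, Hist4h, H1f, H2af or H3f. Of these, 68 carry a Hist symbol and are called cluster genes here, and the other 16 are called genes outside the clusters. The split is by symbol and not by position. On chromosome 6 H2afj starts at 136808244, close to Hist4h4, which ends at 136804415 (GENCODE M21). The WT group was C57Bl6/J retina and the second group was rd10 retina, also labelled with the strain C57Bl6/J, both at postnatal day 30. In rd10 there is a missense allele of Pde6b, the rod phosphodiesterase beta subunit gene, and rods are lost after birth. Each group held 3 RNA-seq libraries, each from 2 frozen retinas. Whether the samples of a group stem from different animals is not stated in the labels, and the p-values below therefore speak only of the spread between the 3 samples of a group, which may be technical.

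Chromatin is built from nucleosomes, in which DNA wraps around the core histones H2A, H2B, H3 and H4, with a linker histone, H1, bound where the DNA enters and leaves. Most cluster genes serve DNA replication: they have no introns, and their mRNA ends in a stem-loop in place of a poly(A) tail. Genes outside the clusters mostly encode replacement histones, such as H3.3 and H2A.Z, which are also made in non-dividing cells from polyadenylated mRNA. Some cluster genes also give polyadenylated mRNA in differentiated cells. The kit named in the labels in its standard form captures RNA by the poly(A) tail, and the labels do not say whether that step was kept. Rod nuclei of the mouse are known for an inverted arrangement, with heterochromatin in the centre, and Hist1h1c, which encodes the linker histone H1c, is a known component of it.

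The WT libraries held 13573035 to 15818918 counts each, and the rd10 libraries 10923556 to 12171088. The 18 rod marker genes made up 11.4% to 12.5% of each WT library and 2.76% to 3.95% of each rd10 library; all 18 fell, and none was at 0. The 17 markers of microglia and macrophages made up 0.0146% to 0.0154% of WT and 0.0537% to 0.0682% of rd10 counts, and all 17 rose. In bulk retina, fewer cells of a type and less RNA per cell cannot be told apart. Libraries WT-1 and Rd10-4 stood apart in a trend with the GC content of transcripts: at 62% GC the typical tested gene lay 0.58 above its mean over the 6 libraries on the log2 scale in WT-1 and 0.45 above it in Rd10-4, and at 46% GC it lay at -0.10 and -0.12. In WT-23 the trend ran the other way, with -0.56 at 62% GC. Values that move by much without these libraries are given beside the results concerned.

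Windows before the RefSeq starts of the linker genes are shown because those of the tested cluster genes and of the tested genes outside the clusters differ in the motifs they hold. Given are the 150 bases before the RefSeq start (GRCm38.p6, the assembly that mm10 names), read 5′ to 3′ along the gene, for the 4 linker genes with enough reads to test. Capitals mark AAACACA (the H1 box of linker histone promoters), CCAAT (the CCAAT box), the TATA box TATAAA, and ATTTGCAT (the octamer bound by Oct-1), found on either strand.
Hist1h1c, chr13:23738657-23738806, plus strand: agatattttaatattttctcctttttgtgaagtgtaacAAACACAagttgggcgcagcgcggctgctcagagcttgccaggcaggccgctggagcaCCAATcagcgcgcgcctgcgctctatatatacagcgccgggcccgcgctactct
Hist1h1e, chr13:23622559-23622708, minus strand: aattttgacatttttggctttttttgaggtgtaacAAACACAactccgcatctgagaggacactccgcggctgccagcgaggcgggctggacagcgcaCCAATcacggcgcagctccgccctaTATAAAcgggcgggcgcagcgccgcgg
H1f0, chr15:79028062-79028211, plus strand: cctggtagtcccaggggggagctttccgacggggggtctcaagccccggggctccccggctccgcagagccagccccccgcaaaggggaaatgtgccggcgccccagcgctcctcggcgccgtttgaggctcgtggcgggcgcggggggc
H1fx, chr6:87981483-87981632, minus strand: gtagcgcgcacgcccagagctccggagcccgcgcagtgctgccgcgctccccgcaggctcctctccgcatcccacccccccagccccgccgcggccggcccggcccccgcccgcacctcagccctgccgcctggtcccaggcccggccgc

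Hist1h1c and Hist1h1e each held AAACACA and CCAAT in the same order, with AAACACA starting at position -112 and -115 and CCAAT at -54 and -52 from the start site, and Hist1h1e also held TATAAA at -27. H1f0 and H1fx held none of the 4 motifs in the 250 bases before the RefSeq start. For H1f0 that window ends at 79028211, while the gene starts at 79028450 in the GENCODE M21 annotation. The bases directly before the M21 start were not searched, so a motif there is not excluded. For H1fx the RefSeq start lies inside the M21 gene span. Over the same 250 bases, searched on both strands, 5 of the 6 cluster linker genes held AAACACA, against 6.25% of all 32851 promoter windows, and all 6 held CCAAT, against 33.8%. CCAAT was not limited to cluster genes. Of 14 windows taken for histone genes outside the clusters, 8 held CCAAT, among them that of the untested linker gene H1foo, and 1 held AAACACA. A RefSeq window was taken for 76 of the 84 histone genes. The window taken for H2afb1, counted among the 14 and the 76, is that of H2al2a on chromosome 2. It held none of the 4 motifs, and H2afb1 itself lies on chromosome X in GENCODE M21. Matches are a description of letters and not of bound sites.

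The second sequence mark of the replication-dependent genes is the stem-loop near the 3′ end of the mRNA. In GENCODE M21 transcripts, 42 of the 68 cluster genes held the 16-base histone stem-loop pattern, in which the stem and loop letters are fixed except at 4 places (searched on the transcript strand), against 9 of 55257 gene names outside the set. Of the 16 histone genes outside the clusters, H2afx alone held it. In Hist1h1c the 16 bases that matched were
Hist1h1c stem-loop: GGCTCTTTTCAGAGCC
and the annotated transcript went on for 840 bases after it. All 7 cluster genes that both had enough reads to test and held the pattern had an annotated transcript running over 100 bases past it, with a median of 1150 bases. Among the 35 with the pattern and too few reads to test, 14 did, with a median of 46 bases. These lengths are those of the annotation and not of molecules measured here.

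Most histone genes were hardly counted. Of the 84, 22 had no count in any library, 51 had fewer than 10 counts in all 6 libraries together, and 21 passed the filter on low counts, which asks for enough reads in at least 1 group's worth of libraries. Of the 68 cluster genes 11 passed, among them 2 for H1, 2 for H2A, 6 for H2B, 1 for H4 and none of the 12 for H3. Of the 16 outside the clusters 10 passed. The 57 cluster genes that did not pass held 93, 32 and 59 counts together in WT-1, WT-4 and WT-23 and 39, 53 and 44 in Rd10-3, Rd10-4 and Rd10-5. The cluster genes took 7.39% of all histone counts, and the H3.3 pair H3f3a and H3f3b took 69.9%.

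**Figure D1:**
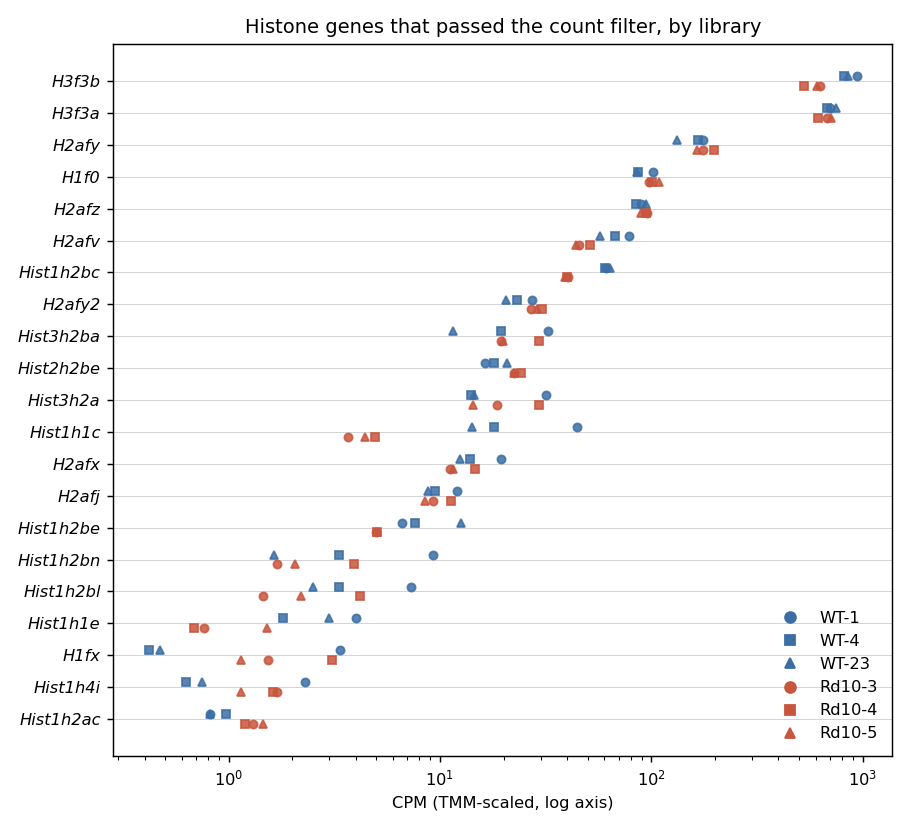
Level of each of the 21 histone genes that passed the filter (CPM, reads of a gene per TMM-scaled library size; log axis), with 1 point per library. H3f3b and H3f3a stand at the top, and the WT and rd10 points of Hist1h1c are fully apart although WT-1 lies far above WT-4 and WT-23.

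Of the 21 genes tested, 5 fell in rd10 and 16 were not called, which does not show that those 16 were unchanged. A gene is called where its adjusted p is under 0.05 in edgeR's quasi-likelihood test over all 13905 tested genes, of which 7.32% fell and 7.12% rose. The 5 were the linker genes Hist1h1c and Hist1h1e, the H2B gene Hist1h2bc, the H3.3 gene H3f3b and the H2A.Z gene H2afv. No histone gene rose in this edgeR test, in DESeq2 or in limma voom, with 1, 0 and 1 having a positive change at an unadjusted p under 0.05. The median log2 fold change of rd10 over WT was -0.06 over the 21 and -0.04 over all tested genes. A gene enters the 21 also through a high level in only 1 group, so these counts describe the genes with reads and not the whole family. The 3 rd10 libraries lay wholly below the WT libraries for 6 of the 21 genes and wholly above them for 2, against 18.6% and 17.1% of all tested genes.

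**Figure D2:**
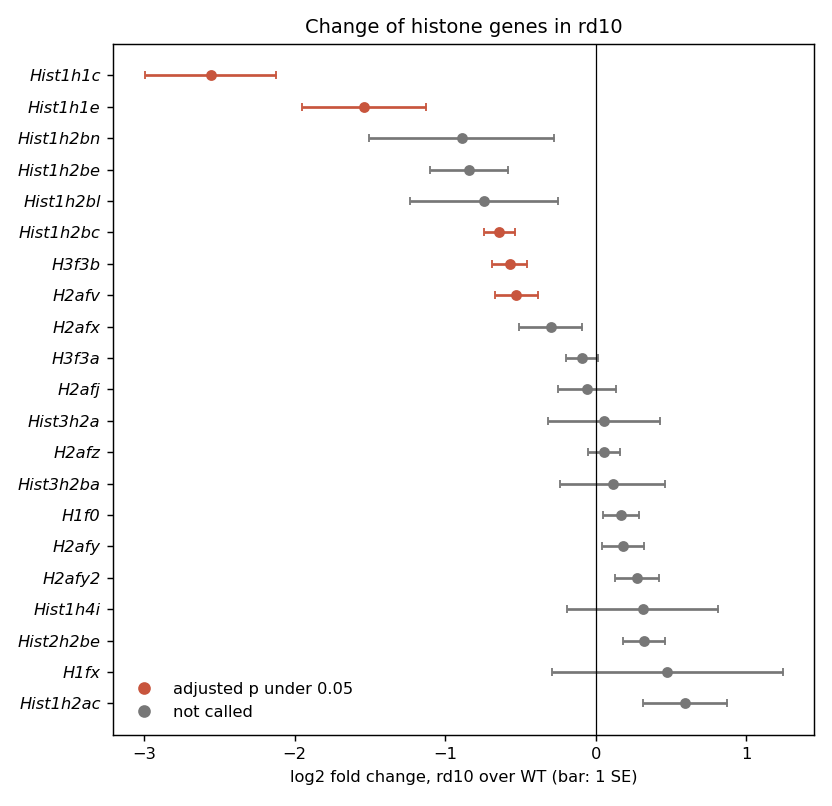
Log2 fold change of rd10 over WT for the 21 tested histone genes from the edgeR fit, with 1 standard error. The 5 genes called lower are Hist1h1c, Hist1h1e, Hist1h2bc, H3f3b and H2afv, and the widest bar is that of H1fx.

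Among linker histones, both tested cluster genes fell, both tested genes outside the clusters were not called, and the other 4 cluster genes had too few reads to test. Hist1h1c had 44.6, 18.1 and 14.2 CPM (reads of a gene per TMM-scaled library size) in WT-1, WT-4 and WT-23. In Rd10-3, Rd10-4 and Rd10-5 it had 3.68, 4.94 and 4.41 CPM. Every rd10 library lay below every WT library, the rd10 values were close together, and WT-1 was far above the other WT libraries. The log2 fold change was -2.56 ± 0.44 (SE, n = 3 per group; edgeR adjusted p = 0.00695), a level 5.89-fold lower in rd10. Without WT-1 it was -1.90, and with both WT-1 and Rd10-4 left out -2.00 (edgeR adjusted p = 0.000346 and 0.000603), so the call did not rest on these libraries. The share of counts of the rod markers fell in the same libraries, and its part in the result was not tested.

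Hist1h1e, which encodes a second somatic linker histone and was the less abundant, went from 4.01, 1.81 and 2.98 CPM in WT to 0.767, 0.682 and 1.52 CPM in rd10. The groups did not overlap, but the counts behind them were between 26 and 49 in WT and between 8 and 20 in rd10. Its log2 fold change was -1.54 ± 0.42 (SE, n = 3 per group; edgeR adjusted p = 0.0439). The call was lost without WT-1, WT-23, Rd10-3 or Rd10-4 (edgeR adjusted p = 0.0561, 0.0701, 0.167 and 0.128), with the pair WT-1 and Rd10-4 left out (0.118), and under unscaled library sizes (0.0527). In GENCODE M21 its exons share 496 bases on the same strand with those of Hist1h2be, while the coordinates in the authors' deposited table do not overlap, so the split of reads between these neighbours is uncertain.

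H1f0, the linker histone of differentiated cells, was the most abundant linker gene per length. It had 102, 86.7 and 85.4 CPM in WT and 98.0, 101 and 109 CPM in rd10, and the groups overlapped. The log2 fold change was 0.17 ± 0.12 (SE, n = 3 per group; edgeR adjusted p = 0.379). H1fx, the gene of the variant H1x, was counted 41, 6 and 7 times in the WT libraries and 20, 36 and 15 times in the rd10 libraries, so that WT-1 and Rd10-4 were highest in their groups. Its log2 fold change of 0.48 ± 0.77 (edgeR adjusted p = 0.72, n = 3 per group) became 2.06 without WT-1 and 1.56 without both WT-1 and Rd10-4, and passed the threshold in both cases (edgeR adjusted p = 0.0256 and 0.0458). With 71.3% GC it was the most GC-rich of the 21 genes, and the GC trend alone put such a gene 0.90 above its mean in WT-1 and 0.82 below it in WT-23 on the log2 scale. With the trend removed its value was 0.54 (edgeR adjusted p = 0.345). The remaining 6 linker genes did not pass the filter. Of these Hist1h1a had most, with WT counts of 3, 4 and 7 and rd10 counts of 0, 2 and 1.

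The make-up of linker transcripts moved accordingly. Per length of annotated exons, Hist1h1c made up 34.2%, 20.9% and 17.1% of linker histone CPM in WT-1, WT-4 and WT-23. In rd10 it made up 4.55%, 5.72% and 4.89%. H1f0 made up between 59.2% and 77.8% in WT and between 88.4% and 92.0% in rd10. The log2 ratio of Hist1h1c to H1f0 counts, which does not depend on library scaling, was -1.19, -2.26 and -2.58 in WT and -4.73, -4.35 and -4.63 in rd10. The difference was -2.56 ± 0.44 (SE, n = 3 per group; exact two-sided permutation p = 0.1, the smallest that 3 against 3 allows, and 0.125 adjusted over 5 ratios).

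**Figure D3:**
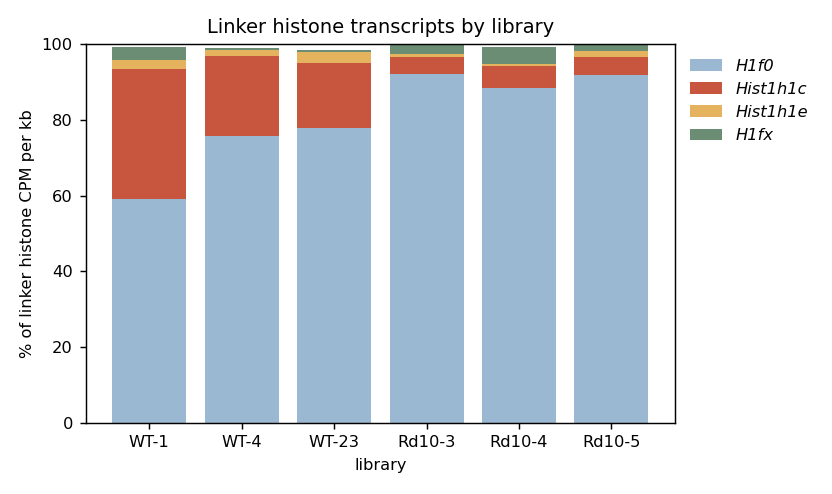
Share of the length-scaled CPM of linker histone genes (%) in each library, stacked for the 4 tested genes. Hist1h1c takes 17.1% to 34.2% of WT and 4.55% to 5.72% of rd10.

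The H3.3 genes encode the same protein from separate loci, and in rd10 H3f3b was called lower while H3f3a was not called. H3f3b had 942, 821 and 856 CPM in WT and 626, 527 and 611 CPM in rd10, with no overlap between the groups. Its log2 fold change was -0.57 ± 0.12 (SE, n = 3 per group; edgeR adjusted p = 0.0158). H3f3a had 698, 681 and 750 CPM in WT and 679, 616 and 706 CPM in rd10, with overlapping groups and a log2 fold change of -0.09 ± 0.11 (edgeR adjusted p = 0.626, n = 3 per group). With inner neuron scaling, factors taken from bipolar, amacrine and ganglion cell genes, H3f3a was at -0.39 and called lower (edgeR adjusted p = 0.0487). That scaling shifted the median over all genes by -0.297 on the log2 scale. H3f3b was the higher of the pair in every WT library, with a count ratio to H3f3a of 1.35, 1.21 and 1.14. It was the lower in every rd10 library, with ratios of 0.921, 0.855 and 0.866. On the log2 scale this ratio moved by -0.48 ± 0.08 (SE, n = 3 per group), with an exact permutation p of 0.1, as low as the design allows, or 0.125 adjusted over 5 ratios. Per kilobase of annotated exons, H3f3b had between 276 and 316 CPM in WT and between 177 and 210 in rd10, and H3f3a between 194 and 214 in WT and between 176 and 201 in rd10.

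The promoters of the pair carry different letters, shown because the genes encode the same protein. Each is again 150 bases before the RefSeq start with the same motifs in capitals, and both belong to a start inside the GENCODE M21 span of the gene.
H3f3a, chr1:180813606-180813755, minus strand: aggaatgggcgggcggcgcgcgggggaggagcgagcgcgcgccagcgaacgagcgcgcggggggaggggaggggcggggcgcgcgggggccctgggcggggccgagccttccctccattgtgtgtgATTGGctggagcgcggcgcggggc
H3f3b, chr11:116024505-116024654, minus strand: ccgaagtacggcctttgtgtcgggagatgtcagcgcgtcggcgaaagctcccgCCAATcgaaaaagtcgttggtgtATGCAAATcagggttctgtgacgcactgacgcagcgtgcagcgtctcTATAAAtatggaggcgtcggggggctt

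Both held CCAAT in the stretch shown, H3f3b at -97 and H3f3a on the opposite strand at -24. H3f3b also held TATAAA at -27 and the octamer, on the opposite strand, at -74. H3f3a held, beyond the stretch shown, AAACACA on the opposite strand at -181. Further upstream H3f3b held 3 more copies of CCAAT. The TATA box was present in 12.4% and the octamer in 1.6% of all promoter windows over 250 bases. The call of H3f3b did not hold with WT-4, Rd10-3 or Rd10-4 left out (edgeR adjusted p = 0.0605, 0.0583 and 0.0645) and under unscaled library sizes (0.0875), while the value stayed negative in all 16 alternatives. Without both WT-1 and Rd10-4 it was -0.44 (edgeR adjusted p = 0.0309). In GENCODE M21 the exons of H3f3a share 638 bases with the opposite-strand gene Gm17275 and 160 with H3f3aos, and no source used here gives the strand setting of the counting. H3f3a also has the pseudogene copies H3f3a-ps1 and H3f3a-ps2 in the annotation, so its count is uncertain to that extent.

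**Figure D4:**
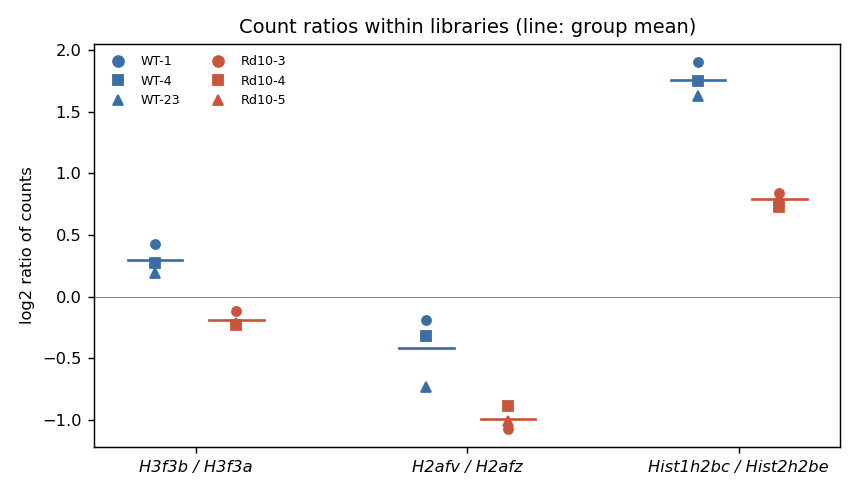
Log2 ratio of counts of H3f3b to H3f3a, of H2afv to H2afz and of Hist1h2bc to Hist2h2be within each library, with group means as lines. The 3 rd10 points lie below the 3 WT points in each ratio, and those of H3f3b to H3f3a change sign.

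Among H2A variants, H2afv fell and the others were not called. H2afv and H2afz encode the isoforms of H2A.Z, a variant placed at promoters and enhancers. H2afv was at 78.3, 67.6 and 57 CPM in the WT libraries and at 45.5, 51.1 and 44.2 CPM in the rd10 libraries, without overlap. Its log2 fold change was -0.53 ± 0.15 (SE, n = 3 per group; edgeR adjusted p = 0.0473). This call was near the threshold: it held in 5 of 16 alternatives, was lost with RLE, upper quartile and unscaled library sizes, with voom and with both other filters on low counts, and was lost without WT-1, WT-4, Rd10-3, Rd10-4 or Rd10-5 (edgeR adjusted p = 0.0552, 0.161, 0.179, 0.0785 and 0.147). Without both WT-1 and Rd10-4 it was -0.48 and called (edgeR adjusted p = 0.0353). H2afz had 89.1, 84.6 and 94.8 CPM in WT and 95.5, 94.9 and 89.1 CPM in rd10, with overlapping groups, and a log2 fold change of 0.06 ± 0.11. The log2 ratio of H2afv to H2afz counts moved by -0.58 ± 0.17 in rd10 (SE, n = 3 per group), with an exact permutation p of 0.1, or 0.125 adjusted.

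H2afx encodes H2A.X, which is phosphorylated at DNA breaks. It had 19.5, 13.8 and 12.5 CPM in WT and 11.1, 14.6 and 11.5 CPM in rd10, and these overlapped (log2 fold change -0.30 ± 0.21, edgeR adjusted p = 0.375). The value was -0.09 without WT-1, -0.43 without Rd10-4 and -0.22 without either. Under inner neuron scaling, which shifted the median over all genes by -0.297, H2afx was at -0.59 and called lower (edgeR adjusted p = 0.0458). WT-1 and Rd10-4 were again the highest of their groups, and with 62.3% GC the gene lies where the GC trend is steep. H2afy and H2afy2 encode macroH2A1 and macroH2A2, variants with a large extra domain. Their log2 fold changes were 0.18 ± 0.14 and 0.28 ± 0.14 (edgeR adjusted p = 0.426 and 0.241), and both turned negative with inner neuron scaling, that is with factors taken from bipolar, amacrine and ganglion cell genes. H2afj, the gene of H2A.J, had a log2 fold change of -0.06 ± 0.19. None of the H2A genes H2afb2, H2afb3 and H2afy3 had a count in any library, and H2afb1 had at most 6.

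Among H2B genes the most abundant, Hist1h2bc, fell, while Hist2h2be had a positive change that was not called. Hist1h2bc had 61.2, 60.6 and 64.1 CPM in WT and 40.2, 40.0 and 39.2 CPM in rd10. The libraries of each group were nearly alike and the groups far apart. Its log2 fold change was -0.64 ± 0.11 (SE, n = 3 per group; edgeR adjusted p = 0.00604). Hist1h2bc and Hist1h1c were the only histone genes called in all 16 alternatives, where their values ran from -0.94 to -0.40 and from -2.82 to -1.90. The authors' deposited table places Hist1h2bc on chromosome 13 from 23684199 to 23692488 in mm10, and its GENCODE M21 transcript is spliced and does not hold the stem-loop pattern.

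Hist2h2be had 16.4, 18.0 and 20.7 CPM in WT and 22.4, 24.1 and 22.5 CPM in rd10, with every rd10 library above every WT library, and a log2 fold change of 0.32 ± 0.14 (SE, n = 3 per group; edgeR adjusted p = 0.16). It passed with the GC trend removed (0.40, edgeR adjusted p = 0.0223) and with library size alone (0.56, edgeR adjusted p = 0.0272). Under inner neuron scaling its value was 0.02 (edgeR adjusted p = 0.937). The count ratio of Hist1h2bc to Hist2h2be was 3.72, 3.36 and 3.10 in WT and 1.79, 1.66 and 1.74 in rd10. Its log2 moved by -0.97 ± 0.08 (SE, n = 3 per group), with an exact permutation p of 0.1, or 0.125 adjusted. The fifth ratio, Hist1h1c to Hist1h1e, had a difference of -0.80 ± 0.54 (SE, n = 3 per group; exact permutation p = 0.3, adjusted 0.3).

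Hist1h2be had 6.62, 7.66 and 12.6 CPM in WT and 4.99, 5.03 and 5.02 CPM in rd10. All rd10 libraries were lower, WT-23 was the highest, and the log2 fold change of -0.84 ± 0.26 missed the threshold (n = 3 per group; edgeR adjusted p = 0.0691). It passed in 5 of 16 alternatives. Among them were DESeq2 (adjusted p = 0.041), the GC trend removed and WT-1 left out (edgeR adjusted p = 0.0178 and 0.0176). The others were inner neuron scaling and WT-1 and Rd10-4 left out together. Without WT-23 the value of Hist1h2be was -0.49. The authors' deposited table holds 3427 genes that, going by its name, were selected on p, fold change and FPKM. Among them are 6 histone genes, the 5 called here and Hist1h2be. It belongs to the same series, so this overlap is no independent support. For Hist1h2be it gives a log2 fold change of -0.84 and FPKM of 11.6 in WT and 6.5 in rd10. Its p-value for the gene is 0.00521, not stated to be adjusted, beside an unadjusted edgeR p of 0.0121 here. For Hist1h1c the authors' deposited table gives 32.3 and 5.5 FPKM on chromosome 13 from 23738808 to 23740367.

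A further set of cluster genes differed more among libraries of a group than between groups. Hist3h2a and Hist3h2ba, both on chromosome 11, encode H2A and H2B. They had 31.6, 14.0 and 14.5 CPM and 32.5, 19.5 and 11.5 CPM in WT-1, WT-4 and WT-23. In Rd10-3, Rd10-4 and Rd10-5 they had 18.6, 29.4 and 14.4 CPM and 19.5, 29.3 and 19.9 CPM. In each gene WT-1 and Rd10-4 were the high libraries, at similar levels. The log2 fold changes were 0.05 ± 0.37 and 0.11 ± 0.35 (edgeR adjusted p = 0.938 and 0.857, n = 3 per group). Without WT-1 they were 0.54 and 0.56, without Rd10-4 -0.28 and -0.11, and without either 0.21 and 0.34, none of them called. In GENCODE M21 the exons of Hist3h2a share 708 bases on the same strand with Trim17, so its reads may be split.

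The H2B genes Hist1h2bl and Hist1h2bn followed the same libraries. For Hist1h2bl the WT libraries gave 89, 48 and 37 counts and the rd10 libraries 19, 49 and 29. For Hist1h2bn they gave 114, 48 and 24, against 22, 46 and 27. Their groups overlapped and neither was called (edgeR adjusted p = 0.354 and 0.372), with log2 fold changes of -0.74 ± 0.49 and -0.89 ± 0.62. Without WT-1 the values were -0.18 and 0.03, without Rd10-4 -1.24 and -1.33, and without either -0.67 and -0.41. Hist1h2bl passed with the GC trend removed (-0.77, edgeR adjusted p = 0.0397). Hist1h4i, the only H4 gene tested, gave 28, 9 and 11 WT counts and 22, 19 and 15 rd10 counts. Its log2 fold change of 0.31 ± 0.50 was not called (edgeR adjusted p = 0.718) and became 1.09 without WT-1 and 1.03 without both WT-1 and Rd10-4 (edgeR adjusted p = 0.0735 and 0.126). Hist1h2ac, an H2A gene, did not follow these libraries. It was counted 10 to 14 times per WT library and 14 to 19 times per rd10 library. In CPM the rd10 libraries (1.3, 1.19 and 1.45) lay wholly above the WT libraries (0.818, 0.975 and 0.814). Its change of 0.59 ± 0.28 was not called (edgeR adjusted p = 0.198).

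Over the 11 tested cluster genes, the median range of log2 CPM among the 3 WT libraries was 1.17, against 0.41 for the 10 genes outside the clusters and 0.457 for all tested genes. These sets also differ in level, and its part in the range was not tested. H1fx, outside the clusters at a WT mean of 1.42 CPM, had a range of 2.62. Of the cluster genes, Hist1h2bc at 62 CPM had 0.0819 and Hist1h1c at 25.7 CPM had 1.64. WT-1 was the highest WT library for 15 of the 21 histone genes and Rd10-4 the highest rd10 library for 13, against 42.3% and 40.3% of all tested genes. Both held for 11 of the 21, against 31.7%. This order of libraries was no more frequent in the cluster genes: both held for 45.5% of them and for 60% of the genes outside the clusters. The GC trend ran the same way for Hist1h2bl, Hist1h2bn and Hist3h2ba. For Hist3h2a, with 45.9% GC in its long annotated transcript, the trend was -0.10 in WT-1, while the gene itself lay 0.71 above its mean there. For Hist1h1c the trend was 0.24 in WT-1 and the gene lay 2.15 above its mean. What else differs in WT-1 and Rd10-4 was not tested.

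**Figure D5:**
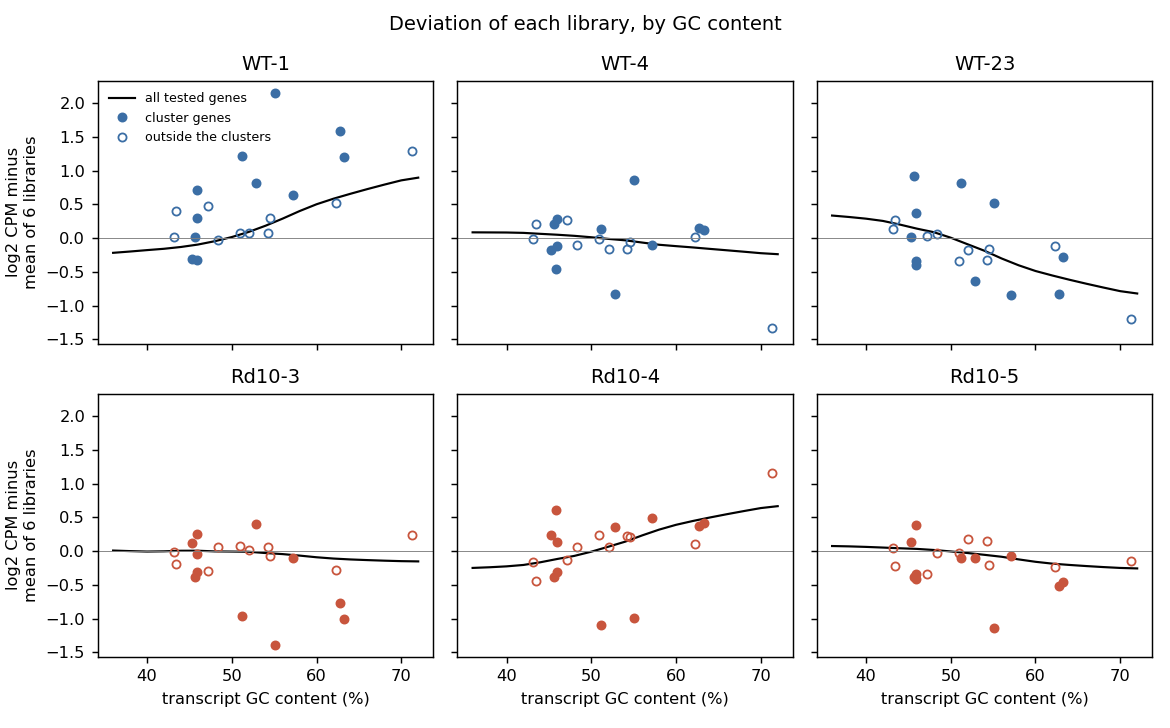
Log2 CPM of each tested histone gene minus its mean over the 6 libraries, against transcript GC content (%), 1 panel per library, with the trend over all tested genes as a black line. In WT-1 and Rd10-4 the line rises with GC content, in WT-23 it falls, and at 62% GC it stands at 0.58, 0.45 and -0.56.

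The summed level of all 84 histone genes depended on the scaling. In TMM-scaled CPM it came to 2370, 2110 and 2170 for WT, against 1890, 1800 and 1890 for rd10, with all rd10 libraries lower. As a share of unscaled counts it was 0.214%, 0.195% and 0.202% in WT and 0.208%, 0.193% and 0.204% in rd10. These shares overlapped, with means of 0.204 ± 0.0094% and 0.202 ± 0.008% (SD, n = 3 per group). Without H3f3b the shares were between 0.119% and 0.129% in WT and between 0.136% and 0.139% in rd10. With rod markers left out of the total they were between 0.222% and 0.244% in WT and between 0.199% and 0.214% in rd10. In TMM-scaled CPM, cluster genes summed to 224, 150 and 150 in WT and to 119, 149 and 117 in rd10, so that Rd10-4 reached the level of WT-4 and WT-23.

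Genes that act on histones were compared next, by lists in which all tested members were counted. Of 34 chaperones and exchange factors, 3 fell and none rose, a share close to the 7.32% of all tested genes that fell, and the list's median was -0.18 on the log2 scale. Anp32e, which removes H2A.Z from chromatin, fell by 0.66 ± 0.12 on the log2 scale (edgeR adjusted p = 0.0104), from 773, 836 and 925 CPM in WT to 526, 491 and 591 CPM in rd10. Ubn1, a subunit of the HIRA complex that deposits H3.3, had -0.45 ± 0.11, and Chaf1a, the large subunit of the replication-coupled assembly factor CAF-1, had -0.72 ± 0.20 (edgeR adjusted p = 0.0367 and 0.0465). Of 20 genes of histone transcription and 3′ end processing, Pou2f1, which encodes Oct-1, fell by 0.71 ± 0.18 and the cell cycle factor gene E2f1 rose by 1.21 ± 0.27 (edgeR adjusted p = 0.0331 and 0.0202). With 1 gene in each direction, that list lay below the 7.32% and 7.12% of all tested genes, and its median was -0.23. Cenpa, the H3 variant of centromeres and outside the symbol rule, gave 15, 23 and 25 WT counts and 3, 5 and 7 rd10 counts, and fell by 1.91 ± 0.38 (edgeR adjusted p = 0.0127).

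Of 22 tested genes of heterochromatin and nuclear architecture, 6 fell and none rose, against 7.32% and 7.12% of all tested genes, with a median of -0.21. Hmgb2, a chromatin protein that bends DNA, went from 45.5, 42.2 and 38.2 CPM in WT to 12.7, 10.8 and 13.3 CPM in rd10, a log2 fold change of -1.77 ± 0.14 (n = 3 per group; edgeR adjusted p = 0.000453). The nucleosome-binding protein genes Hmgn1 and Hmgn2 had -0.80 ± 0.13 and -0.72 ± 0.14. Lmnb1, which encodes lamin B1 of the nuclear envelope, had -1.17 ± 0.16. Suv39h2, a methyltransferase of lysine 9 of H3, had -1.18 ± 0.20, and Cbx1, which encodes the reader HP1 beta, had -0.71 ± 0.18. Each of these groups of libraries was fully apart, and the rod marker share fell in the same libraries.

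Since replication drives most cluster genes, S phase and mitosis genes were read beside them. Of 30 listed, 19 had enough reads to test, of which 2 rose and none fell, against 7.12% and 7.32% of all tested genes, so that these counts do not set the list apart. The list's median was -0.02 on the log2 scale. Mki67, a marker of cycling cells, gave 1, 3 and 1 WT counts and 19, 11 and 17 rd10 counts, and rose by 3.26 ± 0.49 on the log2 scale (edgeR adjusted p = 0.00428, n = 3 per group). Uhrf1, a factor of maintenance DNA methylation, gave 2, 5 and 4 WT counts and 16, 10 and 12 rd10 counts (1.88 ± 0.41, edgeR adjusted p = 0.0202). Pcna and Rrm1, the most abundant of the list, were not called (-0.20 ± 0.10 and -0.28 ± 0.14). The list's genes together took between 0.0198% and 0.0239% of counts in WT and between 0.0238% and 0.0256% in rd10. In the same libraries none of the 11 tested cluster histone genes was called higher with TMM scaling and the GC trend left in. Hist2h2be was called higher with the GC trend removed and with library size alone. The 57 cluster genes not tested, of the 68, had too few reads. Whether RNA was captured by the poly(A) tail, which most replication-dependent histone mRNA lacks, is not stated in the labels. A rise of such mRNA was therefore neither shown nor excluded.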

How the data were processed

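RNA was measured by strand-specific RNA-seq, per the labels' protocols, in 3 WT and 3 rd10 retina samples. The authors deposited whole-number counts per gene symbol. The submitters' processing notes name mm10, edgeR, HTSeq and TopHat2 2.1.0 without roles; the sources used here give neither the annotation nor the handling of reads with several matches. Column names give only the genotype, so libraries keep those names. The authors' deposited tables hold FPKM per group, log2 fold changes and p-values, used as they stand.

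Counts were filtered with filterByExpr (13905 genes) and fitted in R 4.3.3 with edgeR 4.0.16 (TMM, robust quasi-likelihood, genotype only, Benjamini-Hochberg over all tested genes); the fit was tested on simulated data. Standard errors come from the fit's F statistic. Alternatives used DESeq2 1.42.0, limma 3.58.1 voom, other scaling and filters, a GC trend per library (lowess, span 0.3; 13302 tested genes had a GC value), and each library left out. Log2 CPM used a prior count of 2. Exact permutation tests used scipy 1.17.1. Gene models and GC came from GENCODE M21, promoters from RefSeq GRCm38.p6.

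Genes, lists and the naming rule were chosen with earlier results of these data known. The rule named every called histone gene, the 15 most abundant, all tested linker genes, the H2A.X, H2A.Z and H3.3 genes, and the called or else the 2 most abundant members of each list; other genes were named after their values were seen. Leaving out WT-1 and Rd10-4 together was added after seeing the data. Marker lists of cone, bipolar, amacrine, ganglion, Müller, blood, lens and pigment epithelium cells were also fixed. In that order, 10, 12, 11, 12, 11, 1, 4 and 5 members were tested. Of these, 5, 6, 0, 1, 9, 0, 0 and 0 rose, against 7.12% of all tested genes. Only pigment epithelium had members that fell, namely 3 of 5 tested, against 7.32% of all tested genes.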

Additional observations from a re-analysis of the deposited data

How the results depend on the processing

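The number of genes called over the whole table, 2008, was 3043 with library size alone, 4358 with inner neuron scaling and 4550 with the GC trend removed, and ran from 885 to 3214 with each library left out. The median over all genes shifted from its TMM value by 0.239 (log2) under unscaled library sizes and by -0.297 under inner neuron scaling, and 81.2% and 14.4% of their calls were higher in rd10, against 49.3% with TMM and 63.3% with upper quartile factors. The 5 histone genes called lower became 2 with library size alone, 8 with inner neuron scaling and 7 with the GC trend removed. They became 3 of 15 tested at a mean of at least 5 CPM, and ran from 2 to 4 with each library left out. Of all tested genes, 14.4% were called in either direction with TMM. In these other settings, in that order, 21.9%, 31.3%, 32.7% and 14.1% were called, and 6.26% to 22.8% with each library left out. The 8 with inner neuron scaling were the same 5 with H2afx, H3f3a and Hist1h2be. The count called higher, 0, was 3 with library size alone (H1f0, H2afy2 and Hist2h2be), 1 with the GC trend removed (Hist2h2be), 1 without both WT-1 and Rd10-4 (H1fx), and ran from 0 to 1 with each library left out. The histone share of counts, rd10 minus WT, was -0.00181 percentage points, -0.0228 with rod genes left out of the total, 0.0146 without H3f3b and 0.00768 with the pair WT-1 and Rd10-4 left out; the cause was not tested.

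No gene that was called changed sign. Among genes not called, inner neuron scaling gave H1f0 -0.12, H2afy -0.11, H2afy2 -0.0146, H2afz -0.24, Hist3h2a -0.22 and Hist3h2ba -0.16. Upper quartile factors gave H2afj 0.0381 and H3f3a 0.00582, library size alone gave H2afj 0.19 and H3f3a 0.15, and the GC trend removed gave H3f3a 0.00116. With each library left out, the value ran from -0.0292 to 2.06 for H1fx, from -0.18 to 0.0886 for H2afj, from -1.33 to 0.0284 for Hist1h2bn, from -0.28 to 0.54 for Hist3h2a and from -0.16 to 0.56 for Hist3h2ba. No paired analysis was possible because the column names carry no replicate number of the samples' titles. For the 63 histone genes that did not pass the filter, a change was neither tested nor excluded at this depth.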
